A study of Homo sapiens with 9 samples.

Results

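The windows described here lie on small nucleolar RNAs (snoRNAs) and small Cajal body RNAs (scaRNAs), and were chosen by GENCODE gene type: exon windows of any identifier typed snoRNA or scaRNA. They number 1612 of the 15767966 windows in the cross-link count table, on 372 of 35308 identifiers. Identifiers that overlapped another member on the same strand (14) were joined with it, which gave 358 RNAs: 136 C/D box RNAs with SNORD symbols, 134 H/ACA box RNAs with SNORA symbols, 20 Cajal body RNAs typed scaRNA and 68 other snoRNAs. The last group held unnamed copies as well as SCARNA10, SCARNA12 and SCARNA18, which carry Cajal body symbols but the type snoRNA. Of the 1612 windows, 31 were listed again under another identifier and were counted once, leaving 1581, and 124 windows of 55 RNAs carried the same 9 values as a window of their host gene.

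The measurements are enhanced cross-linking and immunoprecipitation (eCLIP) counts from the human hepatocellular carcinoma line Huh7. All 9 libraries came from Huh7 cells that were irradiated with ultraviolet light, lysed and treated with RNase I. The groups were 3 immunoprecipitates with an antibody to the mitochondrial malate dehydrogenase (MDH2 IP), 3 with a control IgG (IgG IP) and 3 size-matched inputs (SMI), in which lysate RNA from the same gel region was sequenced without immunoprecipitation. The SMI libraries received fewer PCR cycles than either kind of IP, so cycle number and input cannot be told apart. The labels number the replicates without saying whether they were separate cultures, and p-values therefore measure the spread between these libraries, which may be technical. Library totals of window counts ran from 5899767 to 9482209 for MDH2 IP, from 8311027 to 9788461 for SMI and from 1631220 to 2942624 for IgG IP, so that low RNAs were measured least precisely in the last. The hepatocyte marker AFP stood between 861 and 1960 normalised counts (CPM, counts scaled to the TMM-adjusted exon total of a library) in every library and ALB between 492 and 1290, while PTPRC and COL1A1, markers of blood cells and fibroblasts, did not exceed 1.49 CPM and the endothelial marker PECAM1 did not exceed 10.2.

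C/D box RNAs carry a C box near the 5′ end and a D box near the 3′ end, bind fibrillarin, NOP56, NOP58 and SNU13, and most guide ribose methylation of ribosomal RNA in the nucleolus. H/ACA box RNAs form hairpins followed by an ACA near the 3′ end, bind dyskerin (DKC1), GAR1, NHP2 and NOP10, and guide pseudouridylation. Cajal body RNAs use either architecture, or both in one molecule, to guide the same modifications of spliceosomal RNAs. Most human members are cut from introns of host genes, and a few of each kind serve pre-rRNA cleavage instead of modification.

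These architectures were visible in the sequences. TGATG, the core of the C box, occurred within the first 25 bases of 82.4% of the C/D box RNAs, CTGA, the D box, within the last 20 bases of 93.4%, and both in 80.1%. Of the H/ACA box RNAs, 1.49% held both and 87.3% held ACA within the last 9 bases. Among 4678 other annotated small RNAs of 60 to 200 bases, 2.09% held TGATG, 6.14% held CTGA, 0.214% held both and 7.93% held ACA in the same places. Of the 20 Cajal body RNAs, 16 (80%) had ACA near the end and 2 (10%) had both C and D boxes. Only the transcript strand was searched, and a match is a match of letters.

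The following C/D box RNAs are shown because SNORD118 gave one of the highest levels of its class with no call in any comparison, while SNORD101 and SNORD42B were 2 of the 3 members of their class that were higher in MDH2 IP than in SMI. SNORD118 lies on the minus strand of GRCh38 at chr17:8173454-8173587 within TMEM107, SNORD101 on the plus strand at chr6:132815307-132815379 in RPS12, and SNORD42B on the plus strand at chr17:28720550-28720616 in RPL23A. Sequences are transcripts of GENCODE v44 written 5′ to 3′, and capitals mark the letters of the C box, D box or terminal ACA. In SNORD118 the marked C box letters are at bases 55 to 59, outside the first 25 bases searched above.
SNORD118: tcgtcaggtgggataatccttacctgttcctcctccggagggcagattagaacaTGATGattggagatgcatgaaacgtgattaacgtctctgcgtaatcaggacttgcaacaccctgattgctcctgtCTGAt
SNORD101: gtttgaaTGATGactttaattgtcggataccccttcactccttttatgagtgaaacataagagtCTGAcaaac
SNORD42B: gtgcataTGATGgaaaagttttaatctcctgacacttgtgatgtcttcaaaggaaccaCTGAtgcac

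From the H/ACA class, SNORA73B and SNORA81 are shown as 2 of the most abundant members and SNORA14B as the one with the strongest measured fall in MDH2 IP among those with counts in every library. SNORA73B lies on the plus strand at chr1:28508559-28508762 in RCC1, SNORA81 on the plus strand at chr3:186786675-186786852 in EIF4A2, and SNORA14B on the minus strand at chr1:235127803-235127937 in TOMM20. SNORA81 has no ACA within its last 9 annotated bases and is printed without capitals.
SNORA73B: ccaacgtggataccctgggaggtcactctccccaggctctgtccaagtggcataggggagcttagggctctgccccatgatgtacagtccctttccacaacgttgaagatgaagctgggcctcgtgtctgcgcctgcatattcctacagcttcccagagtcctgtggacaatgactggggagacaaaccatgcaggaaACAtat
SNORA81: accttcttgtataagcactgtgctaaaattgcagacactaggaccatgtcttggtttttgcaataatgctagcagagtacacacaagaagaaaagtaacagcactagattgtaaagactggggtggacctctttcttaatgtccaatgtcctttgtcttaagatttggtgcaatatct
SNORA14B: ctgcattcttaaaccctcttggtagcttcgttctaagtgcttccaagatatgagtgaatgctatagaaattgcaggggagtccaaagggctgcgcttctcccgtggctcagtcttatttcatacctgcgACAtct

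Cajal body RNAs fell on both sides of the input, and the sequences contrast members that end in ACA with members that do not. SCARNA4, on the minus strand at chr1:155925958-155926086 in KHDC4, and SCARNA11, on the minus strand at chr12:6581474-6581609 in CHD4, carry the terminal ACA. SCARNA2, of which the first 190 of 420 bases are printed (plus strand, chr1:109100193-109100382), lies within the long non-coding RNA ENSG00000270066. SCARNA17 and the unnamed ENSG00000252139, on the plus strand at chr18:49814133-49814276 and chr18:49814361-49814443 in SNHG22, both lie in the 421 bases that RefSeq gives to SCARNA17 (chr18:49814023-49814443), and ENSG00000252139 has both C and D boxes. SCARNA12, on the minus strand at chr12:6967337-6967606 in PHB2, was chosen after its values were seen, because it holds C/D and H/ACA elements in one molecule and its windows moved in both directions.
SCARNA4: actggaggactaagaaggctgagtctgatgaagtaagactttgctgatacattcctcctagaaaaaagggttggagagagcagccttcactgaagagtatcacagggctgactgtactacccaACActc
SCARNA11: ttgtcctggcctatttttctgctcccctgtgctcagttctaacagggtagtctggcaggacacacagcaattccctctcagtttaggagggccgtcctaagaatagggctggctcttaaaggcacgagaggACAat
SCARNA2: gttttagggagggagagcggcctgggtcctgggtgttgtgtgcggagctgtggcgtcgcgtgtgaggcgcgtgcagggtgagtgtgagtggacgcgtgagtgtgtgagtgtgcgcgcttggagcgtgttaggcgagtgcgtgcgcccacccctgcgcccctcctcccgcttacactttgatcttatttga
SCARNA17: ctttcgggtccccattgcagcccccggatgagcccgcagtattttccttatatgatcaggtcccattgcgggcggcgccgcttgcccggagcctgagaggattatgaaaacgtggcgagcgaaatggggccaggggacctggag
ENSG00000252139: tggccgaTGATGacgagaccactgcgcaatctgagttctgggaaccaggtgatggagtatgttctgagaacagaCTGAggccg
SCARNA12: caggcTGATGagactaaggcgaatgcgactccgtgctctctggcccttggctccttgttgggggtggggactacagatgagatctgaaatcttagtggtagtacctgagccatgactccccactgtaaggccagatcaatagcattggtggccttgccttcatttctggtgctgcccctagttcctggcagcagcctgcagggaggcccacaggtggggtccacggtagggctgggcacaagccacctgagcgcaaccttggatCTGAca

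H/ACA box RNAs made up a far smaller part of the cross-link counts in both kinds of IP than in the input. Their share of all window counts was 0.05%, 0.0865% and 0.0555% in MDH2 IP, 0.388%, 0.514% and 0.424% in SMI, and 0.0555% ± 0.0312 (SD, n = 3) in IgG IP. Every IP library lay below every SMI library, and the mean share was 6.91-fold lower in MDH2 IP and 7.97-fold lower in IgG IP (p = 0.1 for each, exact two-sided permutation test, the smallest value that 3 against 3 libraries allow). C/D box RNAs showed no such gap, with 0.0982%, 0.239% and 0.0904% in MDH2 IP against 0.103% ± 0.0202 in SMI, and 0.195%, 0.0315% and 0.0311% in IgG IP. The groups of C/D shares overlapped (p = 0.6 for MDH2 IP against SMI by the same exact test). Replicate 2 of MDH2 IP and replicate 1 of IgG IP stood well above their fellows. Without the former the difference to SMI changed from 0.0396 to -0.00854 percentage points. For IgG IP the difference was -0.0169 and reached -0.0715 with 1 library left out. Replicates 2 and 3 of IgG IP lay below the lowest SMI library (0.0892%), so the overlap of IgG IP with SMI rested on replicate 1.

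The balance between the classes therefore differed between libraries. For each C/D count there were 4.33 ± 0.369 H/ACA counts in SMI, 0.495 ± 0.126 in MDH2 IP and 0.958 ± 0.45 in IgG IP (n = 3 each), with no overlap between SMI and either IP (p = 0.1, exact permutation test, again the smallest possible). These shares use every member window, whatever its count. Cajal body RNAs held 0.0502% ± 0.00921 of the SMI counts, and 0.072% ± 0.00826 and 0.0756% ± 0.0212 of those of MDH2 IP and IgG IP. That both IPs lay above SMI rested on SCARNA2, since without it the differences to SMI turned to -0.0184 and -0.018 percentage points.

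**Figure D1:**
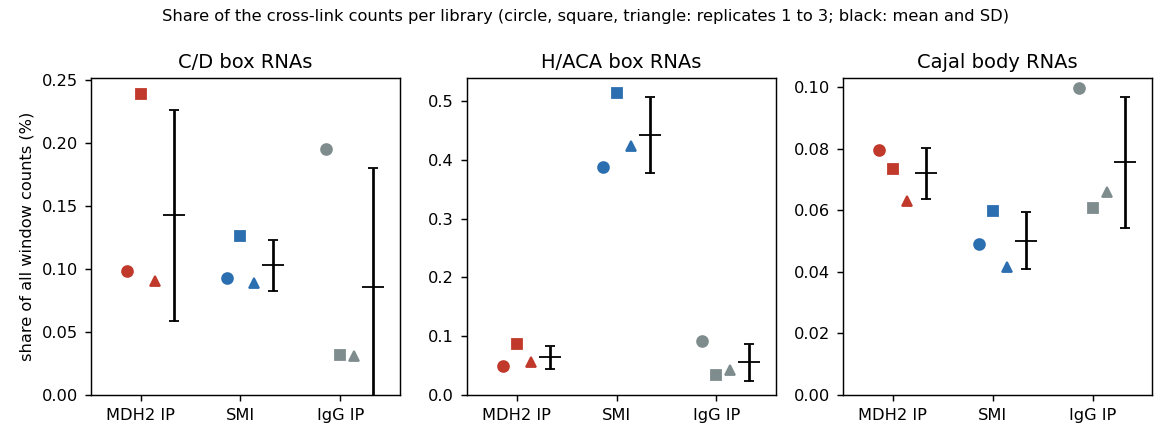
Share of all window counts (%, linear axes from 0) held by C/D box, H/ACA box and Cajal body RNAs in each of the 9 libraries, with mean and SD in black (the SD bar of C/D box RNAs in IgG IP is cut at 0). The 3 SMI libraries lie between 0.388% and 0.514% for H/ACA box RNAs, above all 6 IP libraries.

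Tests per RNA, on window counts summed over each RNA, covered the 210 of 358 RNAs that reached 10 counts in 3 or more of the 6 MDH2 IP and SMI libraries, and 148 were too low to test. Since an RNA can pass this filter through one group alone, the counts below describe the tested RNAs and not all members. Of all 13922 genes tested by edgeR, 8.6% were higher in MDH2 IP and 10.7% lower, with a median log2 fold change of 0.005. Among 94 tested H/ACA box RNAs, 86 were lower, 0 were higher and the median log2 fold change was -3.07 (-3.05 with SNORA60, at 0 in MDH2 IP, set to its bound). In 90 of the 94 every MDH2 IP library lay below every SMI library. Of the 95 tested C/D box RNAs, 19 lay below in this way and 10 above, and the share over all genes was not counted. Without a filter on low counts, 132 H/ACA RNAs could be tested and 91 were lower, 85 of them shared with the 86, and DESeq2 called 88 lower and 0 higher.

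Of 95 tested C/D box RNAs, 3 were higher and 12 lower, 80 had no call, and the median was -0.16. These calls moved with single libraries: 3 were lower without MDH2 IP replicate 1, 6 with MDH2 IP replicate 3 left out, and 5 with SMI replicate 1 or 2 left out. The C/D median was 0.12 without SMI replicate 2, and it was -0.42 with MDH2 IP replicate 2 left out. Cajal body RNAs were split, with 1 higher and 11 lower of 16 tested and a median of -1.89. Of the 5 tested among the other snoRNAs, 1 was higher and 2 lower. The difference between the H/ACA and C/D classes was tested over libraries by the ratio given above, not over RNAs, which share libraries and are no replicates.

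**Figure D2:**
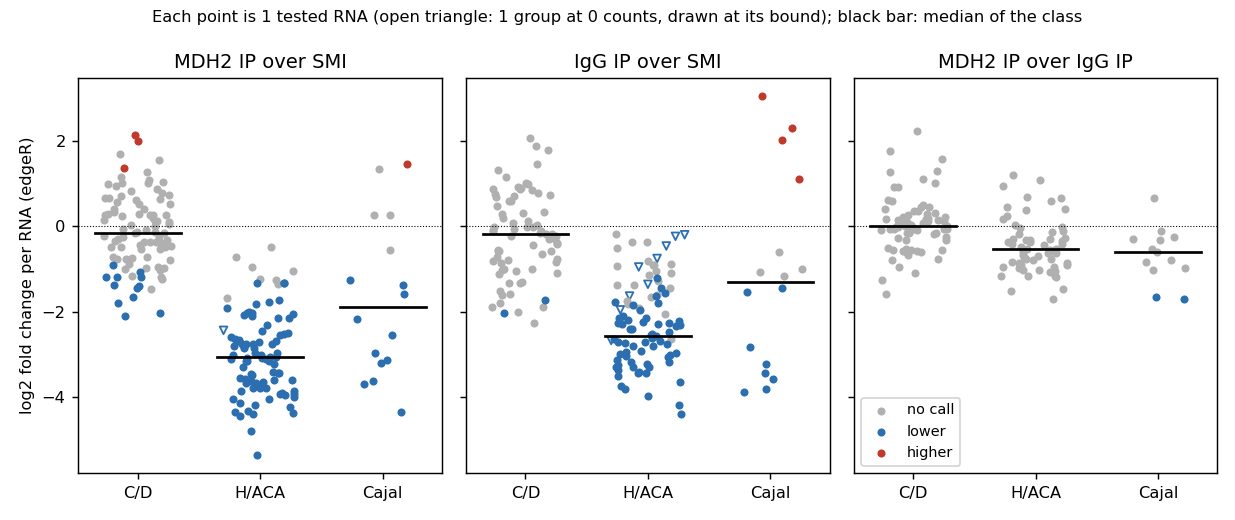
Log2 fold change of each tested RNA (edgeR) by class in the 3 comparisons, with called RNAs in colour, the class median as a bar, and RNAs with 0 counts in a whole group drawn as open triangles at their bound (RNAs whose bound gives no fold are left out). The median of the H/ACA box RNAs is at -3.07 for MDH2 IP over SMI and -2.57 for IgG IP over SMI, while that of the C/D box RNAs is at -0.16 and -0.18 (-1.1 for the latter without IgG IP replicate 1).

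SNORA73A and SNORA73B, known as U17, act in pre-rRNA cleavage and were the most abundant H/ACA members. Counts of SNORA73B were 513, 650 and 457 (MDH2 IP), 6972, 11354 and 10079 (SMI) and 320, 33 and 84 (IgG IP). In library-size units this was 131 ± 31.6 CPM in MDH2 IP against 2340 ± 318 in SMI, a log2 fold change of -4.19 (SE 0.23, edgeR adjusted p = 4.37e-06). SNORA73A fell by 4.06 on the log2 scale (SE 0.24, edgeR adjusted p = 8.96e-06), and since the paralogs are identical at 192 of 206 aligned bases (93.2%), reads could be divided between them in either way.

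The other abundant H/ACA members guide pseudouridylation and moved in the same direction. Counts of SNORA81 were 222, 287 and 147 (MDH2 IP), 2669, 3718 and 3809 (SMI) and 182, 39 and 40 (IgG IP). It fell by 4.05 (log2, SE 0.23, edgeR adjusted p = 5.53e-06) in MDH2 IP. SNORA62 and SNORA6, which share 71.0% of their aligned bases, were lower by -2.03 and -2.70 on the log2 scale (edgeR adjusted p = 0.000364 and 0.000271). In each of these RNAs every MDH2 IP library lay below every SMI library.

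The 3 H/ACA members with the largest fall were of low abundance in MDH2 IP and passed the filter through SMI, and members low in both groups could not be tested. Counts of SNORA14B were 6, 20 and 5 (MDH2 IP), 313, 496 and 409 (SMI) and 7, 3 and 4 (IgG IP), a log2 fold change of -5.36 (SE 0.4, edgeR adjusted p = 3.4e-05) for MDH2 IP over SMI. SNORA40 had 1, 2 and 2 counts (MDH2 IP) and 42, 55 and 44 (SMI), with a log2 fold change of -4.81 (SE 0.51, edgeR adjusted p = 0.000304). SNORA60 was at 0 in all 3 MDH2 IP libraries and had 18, 17 and 12 counts in SMI, so that it was at least 5.43-fold lower, taking 3 counts per library as the floor (edgeR adjusted p = 0.00513).

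The 8 tested H/ACA RNAs without a call all had negative log2 fold changes, and the libraries of the groups overlapped in 4 of them. SNORA57 was the most abundant of them, with 438, 294 and 431 counts (MDH2 IP) and 456, 576 and 516 (SMI), a log2 fold change of -0.48 (SE 0.21, edgeR adjusted p = 0.142). Its share of all H/ACA counts was 9.18% ± 4.07 in MDH2 IP. SNORA52 (-0.72), SNORA71C (-0.95), SNORA63B (-1.06), SNORA11F (-1.23), SNORA41 (-1.26), SNORA68 (-1.36) and SNORA30 (-1.69) had edgeR adjusted p-values between 0.0577 and 0.237. SNORA57 and these 7 were named after their values were seen.

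Neither the terminal letters nor the host gene marked off the H/ACA RNAs that fell. Of 86 tested members with ACA near the end, 78 were lower (median log2 fold change -3.07), as were all 8 members without it (median -3.22). Of 74 within protein-coding hosts 68 were lower and of 19 within long non-coding hosts 18 were lower, with medians of -3.08 and -3.02. Exon counts of the host genes also leaned lower, but by less: of 65 tested hosts 22 were lower and 5 higher, and their median was -0.36. Host exon windows that overlap an RNA were not removed, so the host values may include counts of the RNAs themselves. Among all tested genes 10.7% were lower and 8.6% higher, with a median of 0.005. Across the 94 RNAs, which share the same libraries, the log2 fold change had a Spearman correlation of -0.05 with length.

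The 4 C/D box RNAs with the highest mean level, SNORD3A, SNORD118, SNORD22 and SNORD13, act in pre-rRNA processing. SNORD3A, the U3 RNA of small-subunit processing, had 498, 1840 and 528 CPM in MDH2 IP, 659, 702 and 589 in SMI and 2720, 200 and 205 in IgG IP. Replicate 2 of MDH2 IP and replicate 1 of IgG IP again stood apart, and the groups overlapped (log2 fold change 0.52, SE 0.43, edgeR adjusted p = 0.436 for MDH2 IP over SMI). Without MDH2 IP replicate 2 the SNORD3A value was -0.37. Windows of SNORD3A were listed only up to base 110 of the 699 annotated, while RefSeq gives it 217 bases (chr17:19188016-19188232), and near-identical U3 copies could share its reads.

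SNORD118, the U8 RNA of large-subunit processing, had 1673, 2399 and 742 counts (MDH2 IP), 1077, 1864 and 1344 (SMI) and 831, 62 and 48 (IgG IP). The log2 fold change was 0.054 (SE 0.31, edgeR adjusted p = 0.924), and its sign turned without any of 3 libraries. SNORD13, the U13 RNA, had 374, 602 and 219 counts (MDH2 IP) and 191, 296 and 182 (SMI), a log2 fold change of 0.73 (SE 0.32, edgeR adjusted p = 0.133). In the SNORD14 (U14) family, SNORD14A, SNORD14B, SNORD14C and SNORD14E had log2 fold changes of -0.17, -0.36, -0.54 and -0.72 and no call, SNORD14D was too low to test, and the 5 sequences were 75.6% to 85.9% identical in pairs. The lowest of these values, -0.72, compares with -4.06 and -4.19 for SNORA73A and SNORA73B.

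SNORD22, which acts in small-subunit processing, was the exception. Of the 2 copies in SNHG1, the one at chr11:62852910-62853035 had 482, 424 and 199 counts (MDH2 IP) and 540, 725 and 619 (SMI), and 84.9 ± 23.1 against 156 ± 10.6 CPM. Its log2 fold change was -0.91 (SE 0.21, edgeR adjusted p = 0.014). The call was lost without MDH2 IP replicate 1 (adjusted p = 0.0558) or SMI replicate 1 (adjusted p = 0.0623). The other copy, at chr11:62854161-62854285, stood at 0.86 with no call (edgeR adjusted p = 0.164). SNORD17, a methylation guide of 237 bases, had 83, 126 and 68 counts (MDH2 IP), 278, 469 and 390 (SMI) and 50, 6 and 12 (IgG IP), and a log2 fold change of -2.11 (SE 0.26, edgeR adjusted p = 0.000698). The other C/D box RNAs that were lower were SNORD97, SNORD33, SNORD46, SNORD16, SNORD65, SNORD67, SNORD110, SNORD100, SNORD38B and SNORD8, between -1.08 and -2.03, named here because of their calls.

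The 3 C/D box RNAs that were higher in MDH2 IP are short methylation guides in introns of ribosomal protein genes. Counts of SNORD101 were 102, 177 and 54 (MDH2 IP), 13, 40 and 18 (SMI) and 55, 3 and 6 (IgG IP), with a log2 fold change of 2.14 (SE 0.47, edgeR adjusted p = 0.0131). Counts of SNORD42B were 54, 67 and 32 (MDH2 IP), 12, 8 and 15 (SMI) and 27, 2 and 0 (IgG IP), with a log2 fold change of 2.00 (SE 0.41, edgeR adjusted p = 0.00952). The MDH2 IP libraries lay above all SMI libraries for both, and IgG IP spread across the 2 groups. The SNORD101 call was lost without SMI replicate 1 (log2 fold change 1.91, adjusted p = 0.0734), and the SNORD42B call with all 9 libraries in the fit (2.03, adjusted p = 0.0735).

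SNORD32A, the third, comes from RPL13A, which hosts 3 further C/D box RNAs, and these did not move together. SNORD32A had 93, 165 and 75 counts (MDH2 IP) and 28, 61 and 34 (SMI), with a log2 fold change of 1.37 (edgeR adjusted p = 0.031). The SNORD32A call was lost without MDH2 IP replicate 2, SMI replicate 1 or SMI replicate 3. SNORD33 had 48, 76 and 28 against 99, 130 and 90 (log2 fold change -1.18, edgeR adjusted p = 0.0352). SNORD34 and SNORD35A from the same gene were both at 0.11 with no call. These 4 were named after their values were seen. One unnamed snoRNA, ENSG00000275146, was also higher, with 48, 31 and 24 counts in MDH2 IP against 7, 17 and 6 in SMI (log2 fold change 1.64, edgeR adjusted p = 0.0372), a call that was lost without any of 5 of the 6 libraries (adjusted p between 0.0502 and 0.128).

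The median was lower among longer C/D box RNAs. Of 47 tested members of up to 80 bases 2 were higher and 4 lower (median log2 fold change -0.13), of 30 between 81 and 100 bases 1 was higher and 2 lower (median -0.23), and of 18 over 100 bases 0 were higher and 6 lower (median -0.45). The Spearman correlation of log2 fold change and length was -0.19 over these 95 RNAs, all read from the same 6 libraries. The 68 members in protein-coding hosts (median -0.16) and the 21 in long non-coding hosts (median -0.25) had 10 and 2 lower members.

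**Figure D3:**
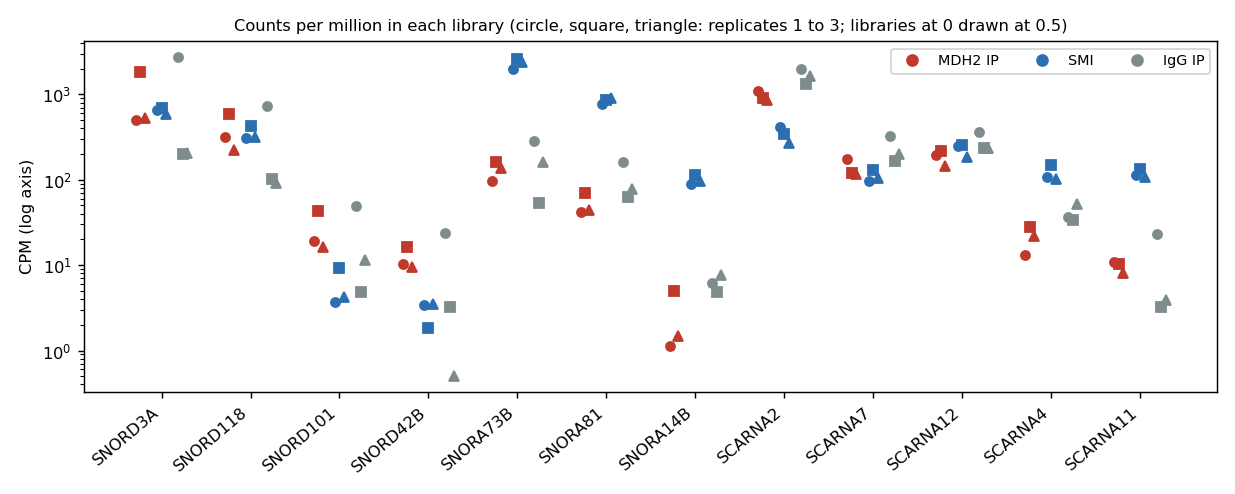
Normalised counts (CPM, log axis) of 12 RNAs in each library, with MDH2 IP in red, SMI in blue and IgG IP in grey (libraries at 0 are drawn at 0.5). SNORA73B, SNORA81, SNORA14B, SCARNA4 and SCARNA11 lie higher in SMI than in any IP library, SCARNA2 lies lowest in SMI, and SNORD3A and SNORD118 overlap between groups.

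SCARNA2, which guides methylation of spliceosomal RNA, dominated the Cajal body class in both IPs. It held 77.0% ± 1.18 of the Cajal body counts in MDH2 IP and 77.9% ± 1.42 in IgG IP, but 30.6% ± 4.58 in SMI. Counts of It were 5802, 3724 and 2893 (MDH2 IP), 1437, 1500 and 1141 (SMI) and 2235, 818 and 847 (IgG IP). All MDH2 IP libraries lay above all SMI libraries (958 ± 124 against 343 ± 70.7 CPM, log2 fold change 1.45, SE 0.19, edgeR adjusted p = 0.000997). Its windows carry the values of windows in ENSG00000270066 on the same strand, and counts of the 2 genes cannot be told apart.

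The other Cajal body RNAs without a terminal ACA stood at or above the input as well. Counts of SCARNA7 were 926, 485 and 394 (MDH2 IP), 341, 557 and 448 (SMI) and 364, 101 and 105 (IgG IP), with a log2 fold change of 0.27 (SE 0.2, edgeR adjusted p = 0.366 for MDH2 IP over SMI). Counts of SCARNA17 were 88, 74 and 48 (MDH2 IP), 30, 36 and 9 (SMI) and 46, 40 and 25 (IgG IP), with a log2 fold change of 1.34 (SE 0.45, edgeR adjusted p = 0.0638). ENSG00000252139 counts were 68, 64 and 25 (MDH2 IP), 43, 52 and 21 (SMI) and 37, 20 and 27 (IgG IP), with a log2 fold change of 0.27 (edgeR adjusted p = 0.689). Of the 4, among which SCARNA17 and ENSG00000252139 both lie in the RefSeq SCARNA17, SCARNA2 passed the test. SCARNA17 missed it with groups that did not overlap, and was called higher by DESeq2 (adjusted p = 0.0257), with total counts as library size (0.0366), without a filter (0.00368) and with all 9 libraries (0.0436).

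The 12 tested Cajal body RNAs with ACA near the end all had negative log2 fold changes, from -0.55 to -4.36 with a median of -2.76, and 11 were lower. Counts of SCARNA4 were 70, 114 and 74 (MDH2 IP), 382, 650 and 428 (SMI) and 41, 21 and 27 (IgG IP), with a log2 fold change of -2.56 (edgeR adjusted p = 0.000359). SCARNA11 counts were 58, 42 and 27 (MDH2 IP), 397, 584 and 450 (SMI) and 26, 2 and 2 (IgG IP), with a log2 fold change of -3.62 (edgeR adjusted p = 5.53e-06). Both are H/ACA guides, and no MDH2 IP library reached an SMI library. SCARNA13, also of the H/ACA kind, fell by 1.6 on the log2 scale (SE 0.2, edgeR adjusted p = 0.00072). SCARNA21, at -0.55, was the single member with ACA and no call. This division by ACA was made with the values known, and it is a description without a test.

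**Figure D4:**
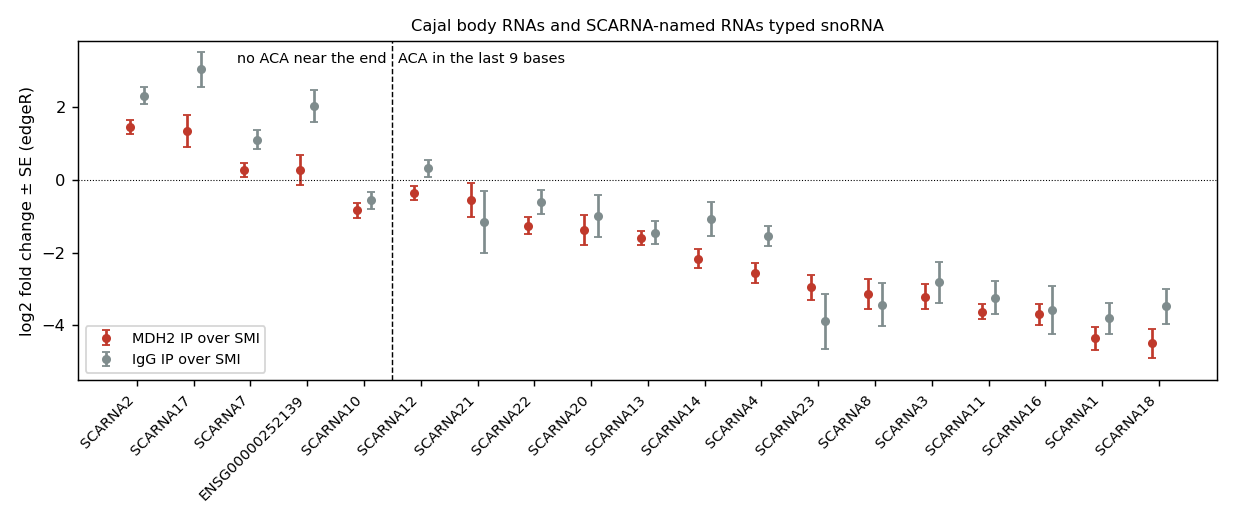
Log2 fold change ± SE (edgeR) of the tested Cajal body RNAs and of SCARNA10, SCARNA12 and SCARNA18, which are typed snoRNA, for MDH2 IP over SMI and IgG IP over SMI, divided by ACA in the last 9 bases. The 4 Cajal body RNAs without ACA lie between 0.27 and 1.45 for MDH2 IP, and the 12 with ACA lie between -4.36 and -0.55. Among the 4, SCARNA17 and ENSG00000252139 both lie in the RefSeq SCARNA17. SCARNA12 is placed by the ACA that overlaps its D box.

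At the level of windows of 50 nt, 670 of the 1581 windows could be tested in MDH2 IP against SMI, with a call at an adjusted one-sided p of 0.05 and a log2 fold change of 1. Among all tested windows 4.07% were higher and 9.92% lower. Of the 379 tested H/ACA windows 363 (95.8%) were lower and 0 higher, with a median log2 fold change of -3.25 against 0.05 over all windows. C/D box windows gave 5 higher and 37 lower of 159, Cajal body windows 15 and 49 of 90, and the other snoRNAs 2 and 24 of 42. In all, 22 windows were higher, on 7 RNAs, and 14 of the 22 lay in SCARNA2. When windows with the values of a host-gene window were left out, 8 were higher. In all, 473 windows were lower, and 188 to 225 without 1 of the SMI libraries, when 398 to 407 passed the filter. Leaving out MDH2 IP replicate 1 or SMI replicate 1 gave 8 higher windows, and SMI replicate 2 or 3 gave 13.

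The windows showed where along an RNA the difference lay. In SCARNA2, 14 of 19 tested windows were higher, by 1.07 to 1.94 on the log2 scale, and the windows at bases 161 to 210 and 181 to 230 were the low points at 0.55 and 0.50. In SNORA73B all 9 windows were lower, from -2.63 at bases 1 to 50 to -4.69 at bases 121 to 170, and all 9 of SNORA73A and all 8 of SNORA81 were lower as well. SNORD118 stayed between -0.20 and 0.30 over its 6 windows with 0 calls. In these 3 H/ACA RNAs the fall covered every tested window, with the 5′ windows of SNORA73B falling least. Across the 70 H/ACA RNAs with at least 3 tested windows, the median range of log2 fold change within an RNA was 1.14, and the widest was 6.27 in SNORA74A.

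SCARNA12, known as U89, and SCARNA10, known as U85, are composite guides with C/D and H/ACA elements, and their windows differed along the molecule. Counts of SCARNA12 were 1018, 873 and 483 (MDH2 IP), 870, 1097 and 786 (SMI) and 402, 146 and 121 (IgG IP), with no call (log2 fold change -0.36, SE 0.19, edgeR adjusted p = 0.222). Its window at bases 21 to 70 was higher by 1.23 (SE 0.28, edgeR adjusted p = 0.0177), with 127, 97 and 60 counts in MDH2 IP against 23, 53 and 31 in SMI. The next 3 windows stood at 0.98, 0.65 and 0.27, and the 5 windows from bases 101 to 150 through 181 to 230 were lower, by -1.01 to -1.35. Of 112 RNAs with at least 3 tested windows, SCARNA12 was the only one with calls in both directions.

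Counts of SCARNA10 were 563, 500 and 242 (MDH2 IP), 641, 831 and 632 (SMI) and 167, 57 and 51 (IgG IP), with a log2 fold change of -0.84 (SE 0.21, edgeR adjusted p = 0.0215). The call was lost without MDH2 IP replicate 1 (adjusted p = 0.0743), SMI replicate 1 (0.0906) or SMI replicate 2 (0.0613). Of its 14 windows the 6 between bases 61 and 210 were lower, down to -1.34 at bases 121 to 170, while the first 2 stood at 0.10 and 0.16 and the last 2 at -0.22 and -0.30. The lower windows thus lay in the interior of the RNA.

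Gradients of the same direction were seen in some other RNAs over 200 bases. SCARNA7 ran from 1.43 at bases 21 to 70 (edgeR adjusted p = 0.0303), its one called window, to -0.90 at bases 221 to 270. SNORD17 stood at -1.75 and -1.30 in its first 2 windows (bases 1 to 37 and 8 to 57), at -0.80 at bases 28 to 77 and then fell to -3.70 at bases 168 to 217, with 9 of 11 windows lower. SCARNA13 ran from 0.16 at bases 6 to 55 to -2.47 at bases 126 to 175, with 7 of 13 lower. The mean position of the counts lay closer to the 5′ end in MDH2 IP than in SMI by 27.8 bases in SNORD17 (93.3 ± 2.7 against 121 ± 5.33), 27.5 in SCARNA7, 27.4 in SCARNA12 and 21.1 in SCARNA13. The libraries of the groups did not overlap in any of the 4 (p = 0.1 by an exact permutation test, the smallest possible with n = 3).

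This shift was not shared by every RNA. Among RNAs with enough windows and counts, the mean position was closer to the 5′ end without overlap in 3 of 8 C/D box and 2 of 7 Cajal body RNAs. The same held for both composite RNAs and 7 of 32 H/ACA box RNAs, while 4 of the 32 lay closer to the 3′ end. The share of such shifts over all genes was not counted, so these counts have no baseline and are a description. In IgG IP against SMI, SCARNA7 shifted by -19.0 bases, SCARNA12 by -21.5 and SCARNA2 by -11.0, each without overlap. Between MDH2 IP and IgG IP the mean position of SCARNA12 (120 ± 2.85 against 125 ± 9.55) overlapped (p = 0.4, exact permutation test, n = 3), and that of SCARNA7 lay 8.42 bases closer to the 5′ end in MDH2 IP without overlap.

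**Figure D5:**
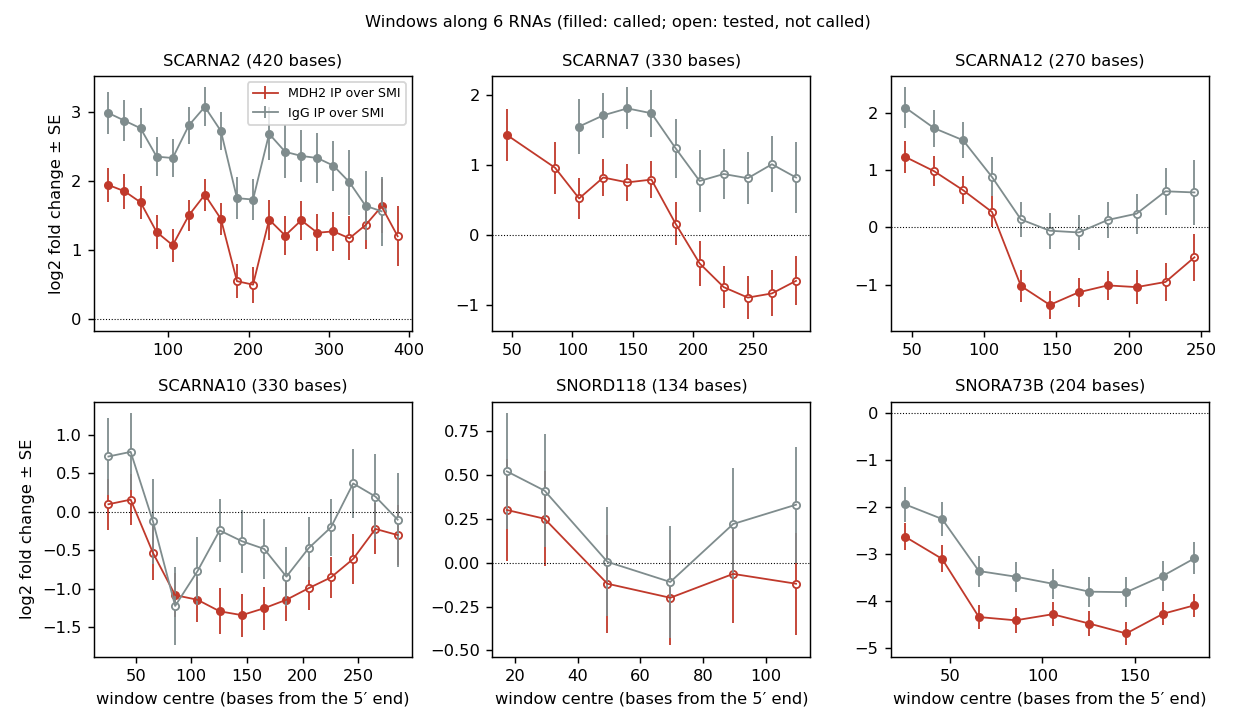
Log2 fold change ± SE (edgeR) of each tested window against the position of its centre from the 5′ end in 6 RNAs, for MDH2 IP over SMI in red and IgG IP over SMI in grey, with called windows filled. SCARNA12 passes from 1.23 near the 5′ end to -1.35 in its middle in MDH2 IP, SNORD118 stays within -0.20 and 0.30, and SNORA73B runs from -2.63 to -4.69 in the same comparison.

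IgG IP against SMI serves as the control for non-specific recovery. It shares the SMI libraries with the comparison above, as MDH2 IP over IgG IP shares the MDH2 IP libraries, so no likeness between them is taken as a result. Of all genes tested by edgeR, 9.59% were higher and 5.98% lower in IgG IP, with a median log2 fold change of -0.11. Among 94 tested H/ACA box RNAs 71 were lower and 0 higher, with a median of -2.57, or -2.29 with the RNAs at 0 in IgG IP set to their bound where one could be given. SNORA73B had a log2 fold change of -3.74 (edgeR adjusted p = 0.000199), SNORA81 -2.99 and SNORA14B -3.97. SNORA50A, SNORA28 and SNORA36A were at 0 in all IgG IP libraries and were at least 6.4-fold, 3.89-fold and 3.11-fold lower than in SMI. Many of the 94 passed the filter through SMI alone. With any 1 SMI library left out, 51 H/ACA RNAs could be tested, of which 33 or 34 were lower. The filter favours low values in IgG IP for the rest, so the counts describe the tested RNAs only. SNORA40B, at 0 in IgG IP, was called lower although its 4.07 CPM in SMI lay under the floor of 4.45 CPM.

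C/D box RNAs gave 0 higher and 2 lower of 75 in IgG IP (SNORD17 at -1.72 and SNORD16 at -2.03, median -0.18). Of the 189 tested RNAs of all classes, 8 were higher and 104 lower at an unadjusted edgeR p of 0.05. The share over all genes at that threshold was not counted. SNORD3A stood at 0.72 (edgeR adjusted p = 0.549) with all libraries and at -1.62 without IgG IP replicate 1, which held 3051 of its counts against 123 and 106. SNORD118 had no call either, at -0.11, and stood at -1.80 without that library. For the class, 12 of 71 tested C/D box RNAs were lower and the median was -1.1 without IgG IP replicate 1, so that the level of C/D box RNAs in IgG IP rested on 1 library.

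All 4 Cajal body RNAs without a terminal ACA were higher in IgG IP than in SMI. Among them, SCARNA17 and ENSG00000252139 both lie in the RefSeq SCARNA17 and are not separate observations. SCARNA2 stood at 1650 ± 333 CPM against 343 ± 70.7 (log2 fold change 2.31, SE 0.23, edgeR adjusted p = 8.31e-05), SCARNA7 at 1.10 (edgeR adjusted p = 0.0133), ENSG00000252139 at 2.02 (edgeR adjusted p = 0.00907) and SCARNA17 at 3.04 (edgeR adjusted p = 0.00143). Of the 12 with ACA 8 were lower and all 12 were below 0, with a median of -2.18. With any 1 SMI library left out, 11 Cajal body RNAs could be tested and 4 were lower. The SCARNA7 call was lost without SMI replicate 1 (adjusted p = 0.106) or SMI replicate 3 (adjusted p = 0.0603). SCARNA4 and SCARNA11 stood at -1.54 and -3.24, and SCARNA12 had 3 higher windows at its 5′ end, up to 2.09, with 0 lower.

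By windows, 6.17% of all tested windows were higher in IgG IP and 6.34% lower. Member windows gave 31 higher and 235 lower of 626 tested. Of the H/ACA windows 202 of 377 were lower, of the Cajal body windows 23 of 86 were higher and 24 lower, and of 124 C/D box windows 4 were higher and 1 lower. SCARNA2 held 17 of the 31 higher windows. The 31 became 18, 20 and 18 without SMI replicate 1, 2 and 3, and the 235 became 51 to 61, when 183 to 187 windows passed the filter.

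Few of these RNAs were called between MDH2 IP and IgG IP. Of 152 tested RNAs 0 were higher in MDH2 IP and 2 were lower by edgeR, where 0.302% of all tested genes were higher and 1.8% lower. At an unadjusted edgeR p of 0.05, 2 were higher and 13 lower (the share over all genes at that threshold was not counted), and DESeq2 called 0 higher and 3 lower. Medians of the log2 fold change were 0.00092 for 73 C/D box RNAs, -0.54 for 62 H/ACA box RNAs and -0.61 for 13 Cajal body RNAs, against 0.037 over all genes. Without IgG IP replicate 1 the H/ACA median was 0.062 and the C/D median 0.81, with 0 calls in either class. The low depth of IgG IP limits this comparison: of the 358 RNAs 206 could not be tested, and a difference in those was not detectable.

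The 2 RNAs that were lower in MDH2 IP both lie in the RefSeq SCARNA17. SCARNA17 had 16.4 ± 1.96 CPM in MDH2 IP and 51.5 ± 12.3 in IgG IP (log2 fold change -1.67, SE 0.31, edgeR adjusted p = 0.018), and ENSG00000252139 had 12 ± 4.21 and 39.3 ± 11.3 (log2 fold change -1.71, SE 0.39, edgeR adjusted p = 0.0471). No MDH2 IP library reached an IgG IP library in SCARNA17, and counts were between 25 and 88. The ENSG00000252139 call was lost without any single library (adjusted p between 0.0723 and 0.219), and that of SCARNA17 without any MDH2 IP library or IgG IP replicate 2 (between 0.0678 and 0.13). SCARNA2 stood at -0.83 (SE 0.21, edgeR adjusted p = 0.0647) with no overlap, and DESeq2 gave it an adjusted p of 0.00274.

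Among 248 tested member windows 0 rose in MDH2 IP relative to IgG IP and 11 fell, where 0.148% and 4.77% of all tested windows were higher and lower. At an unadjusted one-sided edgeR p of 0.05, without a fold threshold, 6 were higher and 101 lower. The share of all tested windows at that threshold was not counted, and overlapping windows share counts, so the 101 are not separate observations. DESeq2 called 0 higher and 3 lower. The 11 windows lay in SCARNA2 (bases 101 to 170), SCARNA7, SCARNA17, ENSG00000252139, SNORA81, SNORA57 and SNORA6, and were named for their calls. Without IgG IP replicate 1 there were 6 higher windows, and 6 lower, and without an MDH2 IP library there were 0 to 2 lower.

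Cross-link counts on mRNAs of the proteins that bind or assemble these RNAs gave no calls. Of 19 listed genes 17 were tested (FBL and ZNHIT3 were not analysed here) and 0 were called by edgeR or DESeq2 in any comparison. Of all tested genes, edgeR called 8.6% higher and 10.7% lower in MDH2 IP over SMI, and 9.59% and 5.98% in IgG IP over SMI. For MDH2 IP over IgG IP the shares were 0.302% and 1.8%, so 0 of 17 says little there. At an unadjusted edgeR p of 0.05, COIL, the coilin scaffold of Cajal bodies, and NOP10 were lower in MDH2 IP than in SMI. In the other comparisons 0 genes passed it, and the share over all genes at that threshold was not counted. The box H/ACA protein transcripts DKC1, GAR1, NHP2 and NOP10 had log2 fold changes of 0.22, -0.12, -0.14 and -0.48 for MDH2 IP over SMI, with a median over the 4 of -0.13. The box C/D protein transcripts NOP56, NOP58 and SNU13 stood at 0.24, 0.37 and -0.24. Of the spliceosomal guides listed, SCARNA5, SCARNA6 and SCARNA9 were not analysed here. The imprinted families SNORD113, SNORD114, SNORD115 and SNORD116 had 0 identifiers among these RNAs, so they were not analysed here either.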

How the data were processed

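Raw counts of cross-link sites were deposited by the authors as whole numbers, 1 column per library, over windows 50 nt wide that advance by 20 nt, so that a site can enter 3 windows. Per the labels and the study's methods, adapters were trimmed with cutadapt, reads of at least 18 nt were aligned to hg38 with STAR keeping up to 10 alignments, PCR duplicates were removed by molecular identifiers, and sites were counted on GENCODE release 23 with tRNA genes added. Multiple alignments let near-identical RNAs share reads.

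Gene types, symbols and sequences were taken from GENCODE release 44 on GRCh38, and 365 of the 372 identifiers had the same version in both releases. Window positions were rebuilt from window numbers, which ran along the chromosome: 33 pairs of overlapping genes on the plus strand and 13 on the minus strand fitted this numbering, and 0 and 1 fitted numbering from the 5′ end. Counts were tested with edgeR 4.0.16 (R 4.3.3) by the quasi-likelihood test with TMM factors on the 6 libraries compared. Windows and RNAs needed at least 10 counts in at least 3 libraries. Window p-values were one-sided, scaled up by how many tested windows overlap, and then adjusted by Benjamini-Hochberg over all windows, with a log2 fold change of at least 1. RNA p-values were two-sided and adjusted over all genes. CPM are counts scaled to TMM-adjusted totals of exon windows. Shares and mean positions were compared by exact permutation tests over libraries. The edgeR calls of windows and RNAs were tried on simulated counts for MDH2 IP against SMI.

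The members, classes and lists were chosen with earlier results of these data known. Named RNAs were the 5 with the highest mean CPM of each class, the 3 with the largest change per comparison and direction among those called without overlap, and RNAs known for pre-rRNA processing or spliceosomal RNA modification; the text says where a name was picked with its values known. Alternatives were DESeq2 1.42.0, other normalizations and filters, all libraries in 1 fit, a replicate block, windows counted once, and each library left out.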

Additional observations from a re-analysis of the deposited data

How the results depend on the processing

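The fall of the H/ACA box RNAs in MDH2 IP kept its direction and most of its calls under every alternative run: between 71 and 92 RNAs were lower, against 86, and the fewest were found without an SMI library, when 80 instead of 94 passed the filter. Window counts rested more on the libraries, because without 1 SMI library 398 to 407 of 670 windows passed the filter for MDH2 IP and 183 to 187 of 626 for IgG IP. Windows higher in MDH2 IP than in SMI (22) became 56 with total counts as library size, 3 at a log2 fold change of 2, 8 with windows of the same values counted once or left out, and 8 to 25 without 1 library; RNAs higher (5) became 8 with total counts, 13 without a filter, 3 with all 9 libraries, 14 with the replicate block, 10 by the window with most counts and 2 to 6 without 1 library. Windows lower (473) became 305 at 20 counts and 188 to 477 without 1 library. Against IgG IP, windows higher (0) ranged from 0 to 6 without 1 library and RNAs higher (0) became 1 without a filter and 1 with all 9 libraries. Windows lower in MDH2 IP than in IgG IP (11) became 3 with DESeq2, 4 with total counts, 6 at 5 counts, 21 with all 9 libraries, 0 at a log2 fold change of 2, 23 without the multiplied p and 0 to 14 without 1 library; RNAs lower (2) became 1 with total counts, 5 with all 9 libraries, 7 with the replicate block, 4 by the window with most counts and 0 to 1 without 1 library. In IgG IP over SMI, windows higher (31) became 17 at a log2 fold change of 2, 13 with windows of the same values counted once or left out, and 18 to 42 without 1 library, RNAs higher (4) became 7 without a filter and 8 by the window with most counts, windows lower (235) became 147 with DESeq2 and 51 to 192 without 1 library, and RNAs lower (82) ranged from 38 to 93 without 1 library. Apart from fewer features tested, the cause was not tested.

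Differences of shares, in percentage points, turned sign as follows. C/D box, MDH2 IP minus SMI, ranged from -0.00854 to 0.0655 without 1 library. Cajal body, MDH2 IP minus SMI and IgG IP minus SMI, became -0.0184 and -0.018 with windows of host values left out and, chosen after seeing the data, the same with SCARNA2 left out. With only windows of at least 10 counts in 3 libraries, MDH2 IP minus IgG IP became -0.257 over all members (0.0648 otherwise) and -0.0966 for H/ACA box RNAs (0.00853 otherwise), and C/D box, IgG IP minus SMI, became 0.103 (-0.0169 otherwise). Without 1 library, H/ACA box, MDH2 IP minus IgG IP, ranged from -0.00274 to 0.0264, Cajal body from -0.0109 to 0.00854, and C/D box, IgG IP minus SMI, from -0.0715 to 0.0106. Further alternatives chosen after seeing the data, SCARNA symbols moved into the Cajal body class and SNORD3A left out of the C/D share, turned no sign; the first gave 13 lower Cajal body RNAs against 11.

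Of 945 values of named RNAs under alternatives, 864 kept direction and call, 33 lost and 31 gained a call, and 17 turned sign. The last were, for MDH2 IP over SMI, SNORD3A (-0.37 to 0.85 without 1 library), SNORD118 (-0.035 with the replicate block, -0.1 by the window with most counts, and -0.42 to 0.33 without 1 library), ENSG00000252139 (-0.062 to 0.52 without 1 library), SNORD14A (-0.56 to 0.12) and SNORD14B (-0.85 to 0.047). For IgG IP over SMI they were SNORD3A (-0.41 with the replicate block, -1.62 to 1.21 without 1 library), SNORD118 (-1.80 to 0.31 without 1 library), SCARNA12 (-0.076 by the window with most counts) and SNORD13 (-1.14 to 0.13 without 1 library). Libraries of the same number correlated by 0.0431, 0.384 and 0.381 in MDH2 IP and SMI and by -0.0118 to 0.186 in the other pairs of groups. These values do not settle whether the numbers pair samples. The paper took SMI from the input before the IP, and the labels do not name pairs. The main tests ignored any pairing. With a replicate block, 10 C/D box RNAs were higher and 21 lower in MDH2 IP than in SMI, against 3 and 12 without it. For H/ACA box RNAs, 92 were lower with the block, against 86.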
